A study of Mus musculus with 12 samples.

Results

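Lamina contacts of Rif1-depleted mouse embryos were compared between the 4-cell and the 8-cell stage, over one cleavage, using the list of lamina-associated domains (LADs) of each stage. The 2 groups are siRif1 4-cell and siRif1 8-cell, with 3 replicates each, so 6 of the 12 samples of the series enter the comparison; the other 6 are siControl embryos of the same stages and serve as the background. All embryos had the genotype (C57BL/6J xCBA) x DBA/2J. Zygotes received 20 µM of siRNA against Rif1, or of control siRNA, at 17 to 18 h after hCG. At 46 to 48 h they received mRNA for AID-Dam-LaminB1 (20 ng/µL), Tir1 (250 ng/µL) and membrane-eGFP (100 ng/µL). The AID tag lets auxin destroy the fusion through Tir1. Auxin (500 µM) was withdrawn at 54 h from 4-cell and at 66 h from 8-cell embryos, which were collected at 60 to 62 h and at 72 to 74 h. Each replicate pooled 16 to 24 blastomeres, taken from 4 to 6 embryos of 4 cells or 2 to 3 embryos of 8 cells. A blastomere is 1 cell of a cleaving embryo, so each list describes a mixture of cells.

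Each group is represented by 1 list made from all its replicates. No value therefore carries a replicate error, no difference between stages could be tested, and the read depth behind a LAD is unknown. The lists hold no RNA values and do not check the depletion of Rif1. LADs lay on chromosomes 1 to 19; chromosome X was not analysed here. A base is called LAD at 8 cells alone when the 8-cell list holds it and the 4-cell list does not, and LAD at 4 cells alone in the opposite case. The Rif1 gene (chromosome 2, 52072815 to 52126769) was outside LADs at both stages. Lmnb1, which encodes the lamin used as bait (chromosome 18, 56707813 to 56753424), was outside LADs in both siRif1 lists and inside a LAD in siControl 4-cell embryos.

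LADs are long, mostly gene-poor and transcriptionally quiet stretches of chromatin that touch the protein meshwork under the inner nuclear membrane. In mouse embryos they are set up after fertilisation and are rebuilt during cleavage. Dam adds a methyl group to the adenine of GATC, so fusing it to lamin B1 marks the DNA that the lamina touched while the fusion was present. RIF1 recruits protein phosphatase 1 to chromatin, delays origin firing in late-replicating domains, and is itself found along late-replicating, lamina-associated chromatin.

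The promoters of 4 regulators of early lineages show the letters that the assay reads, and each of these genes was in a LAD at one siRif1 stage alone. Nanog, a pluripotency factor, and Cdx2, which specifies trophectoderm, were LAD at 8 cells alone. Nr5a2, a nuclear receptor active in early cleavage, and Zfp42, also known as Rex1, were LAD at 4 cells alone. The sequences are from RefSeq on GRCm38.p6, run 5′ to 3′ on the gene's strand from 250 bases before to 50 bases after the start, and have each GATC in capitals. They lie at chr6:122707239-122707538 (plus strand, Nanog), chr5:147307200-147307499 (minus, Cdx2), chr1:136960399-136960698 (minus, Nr5a2) and chr8:43306960-43307259 (minus, Zfp42).
Nanog: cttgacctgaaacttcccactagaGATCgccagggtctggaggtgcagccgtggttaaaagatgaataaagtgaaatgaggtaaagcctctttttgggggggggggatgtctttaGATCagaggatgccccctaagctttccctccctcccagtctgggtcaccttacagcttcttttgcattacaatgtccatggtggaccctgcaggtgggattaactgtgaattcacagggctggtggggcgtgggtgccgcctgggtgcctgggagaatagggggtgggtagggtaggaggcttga
Cdx2: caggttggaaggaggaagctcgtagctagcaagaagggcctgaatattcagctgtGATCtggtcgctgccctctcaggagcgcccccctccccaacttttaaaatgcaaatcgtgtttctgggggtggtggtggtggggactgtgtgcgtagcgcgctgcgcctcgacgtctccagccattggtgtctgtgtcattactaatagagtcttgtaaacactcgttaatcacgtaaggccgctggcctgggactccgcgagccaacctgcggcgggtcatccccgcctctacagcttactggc
Nr5a2: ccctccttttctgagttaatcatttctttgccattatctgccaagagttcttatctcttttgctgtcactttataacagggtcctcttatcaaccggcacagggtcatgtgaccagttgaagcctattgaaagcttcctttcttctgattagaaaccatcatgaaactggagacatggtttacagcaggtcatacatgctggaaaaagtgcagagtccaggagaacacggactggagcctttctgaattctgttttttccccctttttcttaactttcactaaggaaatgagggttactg
Zfp42: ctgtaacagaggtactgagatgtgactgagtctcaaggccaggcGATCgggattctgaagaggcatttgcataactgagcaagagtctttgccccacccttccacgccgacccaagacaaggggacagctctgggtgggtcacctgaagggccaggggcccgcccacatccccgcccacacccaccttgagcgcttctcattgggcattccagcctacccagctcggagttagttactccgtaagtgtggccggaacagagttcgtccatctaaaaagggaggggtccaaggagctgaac

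The Nanog promoter held 2 GATC, those of Cdx2 and Zfp42 held 1 each, and that of Nr5a2 held 0. GATC reads the same on both strands, and it occurred in 46.3% of the 16123 promoters known for protein-coding genes in the span. The share was 46.0% for genes LAD at 8 cells alone, 46.6% at 4 cells alone, 47.1% at both stages and 46.2% at neither. The 4 shares lie between 46.0% and 47.1%. The CpG ratio, the observed over the expected number of CG, was 0.192 at Nanog, 0.731 at Cdx2, 0.152 at Nr5a2 and 0.441 at Zfp42, so each stage had a promoter of low CpG content.

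The amount of chromatin at the lamina was nearly equal at both stages, but which chromatin it was differed. At 4 cells 644 LADs held 1038.4 Mb, 43.5% of the 2384.9 Mb between the first and last LAD of the chromosomes. At 8 cells 738 LADs held 1023.5 Mb, or 42.9%. The stages shared 713.5 Mb, which is 68.7% of the 4-cell LAD bases. Another 310.0 Mb were LAD at 8 cells alone and 324.9 Mb at 4 cells alone, so 26.6% of the span differed for a net difference of -14.9 Mb. In siControl embryos the same cleavage went from 785.7 to 1066.7 Mb, with 484.1 Mb at 8 cells alone, 203.1 Mb at 4 cells alone and a net of 281.0 Mb. The Jaccard index is the bases in both lists divided by the bases in at least 1 of them. It was 52.9% for the siRif1 pair of stages and 45.9% for the siControl pair, whose lists differ more in size. Of the 4-cell LAD bases, 74.2% were also LAD at 8 cells in siControl embryos, against 68.7% in siRif1 embryos.

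LADs of siRif1 embryos were more numerous and shorter at 8 cells. The median length was 1.1 Mb (interquartile range 0.6 to 2.2) at 4 cells and 0.9 Mb (0.4 to 1.8) at 8 cells. LADs under 300 kb numbered 50 at 4 cells and 125 at 8 cells. Those of at least 2 Mb numbered 187 and 163, and held 62.7% and 58.6% of the LAD bases. The longest 4-cell LAD spanned 11.2 Mb of chromosome 9 (3000001 to 14200000), and 82.1% of it lay in 4 LADs at 8 cells. The longest 8-cell LAD spanned 17.3 Mb of chromosome 2 (132800001 to 150100000), and 83.2% of it lay in 4 LADs at 4 cells.

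Chromosomes went both ways. LAD coverage was higher at 8 cells on 10 chromosomes and lower on 9, with a mean difference of -1.29 ± 8.38 percentage points (SD over 19 chromosomes, which are not replicates). Chromosome 17 had the largest difference upward, from 20.6% to 32.0%. Chromosome 10 had the largest downward, from 55.8% to 41.2%, followed by chromosome 9, from 66.2% to 51.8%. In megabases chromosome 1 had most at 8 cells alone (36.3 Mb) and chromosome 3 most at 4 cells alone (33.2 Mb). Between 21.9% and 34.3% of every chromosome differed, including chromosome 14, whose coverage was 32.4% and 32.8%. In siControl embryos 18 of 19 chromosomes had more LAD at 8 cells. Chromosome coverage was less spread at 8 than at 4 cells, with an SD of 7.41 against 9.97 points.

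**Figure D1:**
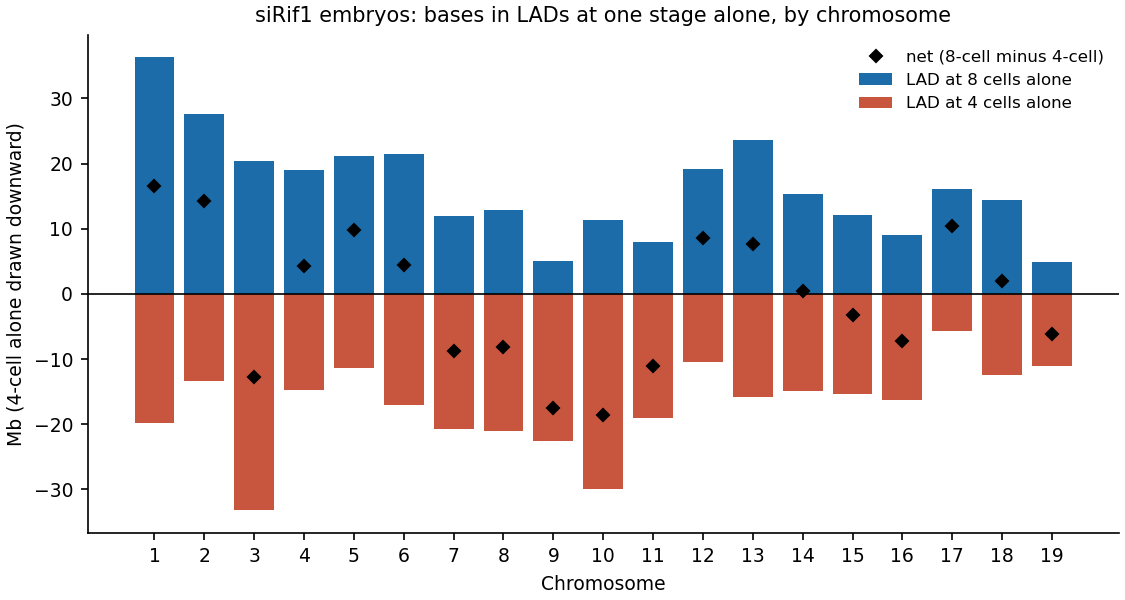
Megabases LAD at 8 cells alone (blue, upward) and at 4 cells alone (red, downward) on each chromosome of siRif1 embryos, with the net difference as a diamond; 1 pooled list per stage, so there are no error bars. Both kinds of difference are present on all 19 chromosomes, and the net is above 0 on 10 and below 0 on 9.

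The differences were spread over many stretches of modest length. Bases at 8 cells alone formed 596 stretches with a median of 0.4 Mb, of which 130 were 1 bin of 100 kb, and 84 of at least 1 Mb held 38.9% of the bases. Bases at 4 cells alone formed 647 stretches, also with a median of 0.4 Mb, of which 127 were 1 bin, and 80 of at least 1 Mb held 34.4%. Most touched a LAD that both stages had. Of the 8-cell-alone bases, 48.4% lay at the border of such a LAD (315 stretches), 26.4% filled a gap between shared LADs (100 stretches) and 23.5% stood free of any shared LAD (171 stretches). Of the 4-cell-alone bases, 57.5% were at a border (434 stretches), 24.3% were openings inside a shared LAD (113 stretches) and 17.1% stood free (91 stretches). The remaining stretches, 10 and 9, lay next to bases that were LAD at the other stage alone. No protein-coding gene had its midpoint in 38.4% of the 8-cell-alone stretches and in 29.7% of the 4-cell-alone stretches.

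LADs without a counterpart were mostly short. Of the 644 LADs at 4 cells, 185 lay wholly inside 8-cell LADs, and 100 (15.5%) had no base there. The share without a base was 37.8% for LADs under 0.5 Mb, 25.5% from 0.5 to under 1 Mb, 6.78% from 1 to under 2 Mb and 1.07% for those of 2 Mb or more. Of the 738 LADs at 8 cells, 258 lay wholly inside 4-cell LADs and 181 (24.5%) had no base there. By the same length classes the shares were 54.1%, 24.6%, 10.6% and 0.613%. A longer LAD has more bases with which to meet another. Of the 4-cell LADs 83 met 2 or more 8-cell LADs, and of the 8-cell LADs 81 met 2 or more at 4 cells.

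**Figure D2:**
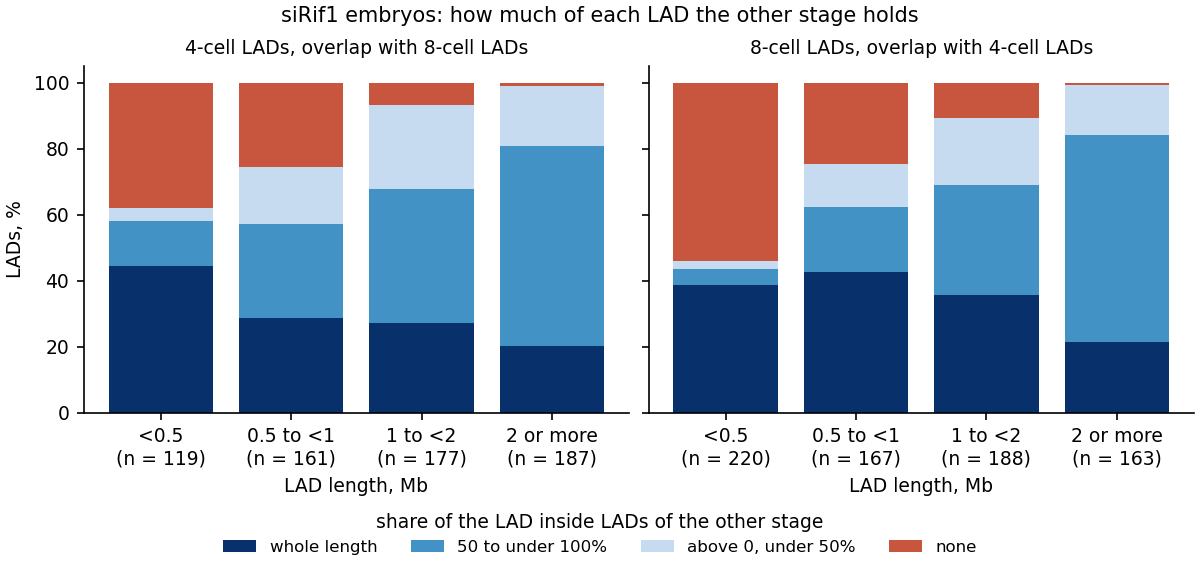
Share of siRif1 LADs (percent, by LAD length in Mb, with the number of LADs) that lay wholly, mostly, partly or not at all in LADs of the other stage, for 4-cell LADs on the left and 8-cell LADs on the right. The share with no base in the other list is 37.8% and 54.1% in the shortest class and 1.07% and 0.613% in the longest.

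Borders could be followed in 301 LADs that matched 1 LAD of the other stage. Of their 602 borders 91 (15.1%) were at the same bin and 37.4% were within 100 kb. At 8 cells 210 borders lay further out, by a median of 0.4 Mb, and 301 lay further in, by a median of 0.3 Mb. Of these LADs 118 were longer and 161 shorter at 8 cells, and their summed length was 451.4 Mb at 4 and 428.1 Mb at 8 cells.

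The longest stretch at 8 cells alone covered 4.3 Mb of chromosome 12 (92400001 to 96700000) with Flrt2, a cell adhesion and guidance gene, and was LAD over 16.3% of its length in siControl 8-cell embryos. Chromosome 17 had 3.4 Mb (58900001 to 62300000) with Pdzph1 and Nudt12. Chromosome 13 had 2.3 Mb (82100001 to 84400000) with Mef2c, a neuronal and cardiac transcription factor, and Tmem161b, and chromosome 4 had 2.3 Mb (78400001 to 80700000) with no named gene. Chromosome 8 had 2.2 Mb (99200001 to 101400000) with the cadherin gene Cdh8, none of it LAD in siControl 8-cell embryos. The eighth, 1.9 Mb of chromosome 18 (39900001 to 41800000), held Kctd16 and Yipf5.

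The fourth longest was of another kind. It was a new LAD of 3.3 Mb on chromosome 5 (145300001 to 148600000) with 41 protein-coding genes, no base of which was LAD at 4 cells and 51.5% of which was LAD in siControl 8-cell embryos. Its longest named genes were Mtus2, the VEGF receptor gene Flt1 and Pan3. It also held Cdx2 and 8 drug-metabolising Cyp3a genes. Other whole LADs at 8 cells without a 4-cell base were 1.8 Mb of chromosome 2 (88700001 to 90500000) with 72 olfactory receptor genes, and 1.5 Mb of chromosome 2 (40800001 to 42300000) with Lrp1b. The remaining 2, of 1.4 Mb each, held Slitrk5 and Slitrk6 on chromosome 14 (110500001 to 111900000) and the calcium exchanger gene Slc8a1 on chromosome 17 (81200001 to 82600000).

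Among the longest stretches at 4 cells alone, chromosome 10 had 2 of 2.7 Mb each. One (27500001 to 30200000) held the phosphatase gene Ptprk, Themis and the Wnt agonist Rspo3, and the other (36300001 to 39000000) held Hs3st5, the deacetylase gene Hdac2 and Marcks. Chromosome 10 had another 2.2 Mb (51400001 to 53600000) with Slc35f1, Ros1 and Cep85l. Chromosome 11 had 2.6 Mb (42600001 to 45200000) with the B-cell regulator Ebf1, Atp10b and Adra1b, and chromosome 15 had 2.1 Mb (4900001 to 7000000) with Fyb, the endocytic adaptor gene Dab2 and the mTORC2 gene Rictor.

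Whole 4-cell LADs without an 8-cell base included 2.7 Mb of chromosome 16 (14100001 to 16800000), with the DNA repair genes Spidr and Prkdc and with Fgd4. They also included 2.3 Mb of chromosome 3 (84900001 to 87200000) with Lrba, Sh3d19 and Dclk2, which was LAD along its whole length in siControl 4-cell embryos and along 13.0% in siControl 8-cell embryos. The other long ones held Gmds, Mylk4 and Foxf2 (chromosome 13, 31000001 to 32800000), Trappc9, Col22a1 and Fam135b (chromosome 15, 71200001 to 73000000), and Asph and Gdf6 (chromosome 4, 9400001 to 10900000).

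Genes were placed by their midpoint, and all counts below are of protein-coding genes. LADs held 4834 of 20144 genes (24.0%) at 4 cells and 4883 (24.2%) at 8 cells. Of the 15310 genes outside 4-cell LADs, 1778 were in a LAD at 8 cells, which is 11.6%. Of the 4834 genes in 4-cell LADs, 1729 were outside at 8 cells, which is 35.8%. In siControl embryos these shares were 14.8% and 38.8%. Neighbouring genes share a LAD, so a count of clustered genes is often a count of few stretches.

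Genes of the pluripotent inner cell mass were found on both sides. Of 22 placed, 15 were in no LAD, 2 in LADs at both stages, 3 at 8 cells alone and 2 at 4 cells alone. Thus 3 of the 18 outside 4-cell LADs (16.7%, against 11.6% of all genes) were LAD at 8 cells. The 2 at 4 cells alone are 50.0% of the 4 inside, against 35.8% of all genes. Nanog lay in a 0.2-Mb border stretch (chromosome 6, 122700001 to 122900000) that was in no siControl LAD. Dppa2 and Dppa4, a pair of chromatin factors that act upstream of the 2-cell program, shared a gap of 0.9 Mb on chromosome 16 (48200001 to 49100000) that was open in siRif1 4-cell embryos alone and lay wholly in LADs of the other 3 groups. Nr5a2 and Zfp42 were crossed by a border: 51.3% of the Nr5a2 body and 58.7% of the Zfp42 body were in 4-cell LADs and none at 8 cells. Neither gene was in a siControl LAD at either stage.

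Of 19 trophectoderm genes, 14 were in no LAD and 1 in LADs at both stages. Cdx2 and Eomes, a T-box factor of the trophoblast lineage, were LAD at 8 cells alone. Gata3, a GATA factor of trophectoderm, and Fgfr2, the receptor of an inner cell mass signal, were LAD at 4 cells alone. The 2 at 8 cells alone are 12.5% of the 16 outside 4-cell LADs, near the 11.6% of all genes. The 2 at 4 cells alone are 66.7% of the 3 inside, against 35.8% of all genes. Gata3 was in LADs of both siControl stages. Eomes had the same pair of states in siControl embryos, and so did Fgfr2, whereas Cdx2 was outside siControl LADs at both stages.

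Of 18 primitive endoderm genes, 4 were LAD at 4 cells alone: the receptor gene Pdgfra, the endocytic genes Cubn and Dab2, and the plasma protein gene Afp. These are 4 of the 6 that were in 4-cell LADs (66.7%, against 35.8% of all genes). Lamb1, which encodes a laminin chain of the basement membrane, and the thyroid hormone carrier gene Ttr were LAD at 8 cells alone. These 2 are 16.7% of the 12 outside 4-cell LADs, against 11.6% of all genes. Cubn and Afp lay in LADs at both stages in siControl embryos. Pdgfra and Dab2 lay in neither, and so did Ttr.

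Genes of the 2-cell stage and of zygotic genome activation were more often LAD at 8 cells. Of 32 placed, 18.8% were in LADs at 4 cells and 37.5% at 8 cells, with 9 at 8 cells alone and 3 at 4 cells alone. The 3 are 50.0% of the 6 genes inside 4-cell LADs, against 35.8% of all genes. The 9 lay in 7 stretches and are 34.6% of the 26 genes outside 4-cell LADs, against 11.6% of all genes. They were Pramel6 and Pramel7, of a leucine-rich family expressed in early embryos and the germ line, the paired Tdpoz3 and Tdpoz4, Zfp352, Spz1, Tcstv1, Zfpm2, and Zfp57, which guards imprints. The 3 at 4 cells alone were Zscan4b, of a family that marks 2-cell-like cells, Duxf3, a copy of the Dux activator, and Eif1a, a translation initiation gene. Dux, Zscan4, Tcstv and Tdpoz genes exist as near-identical copies, and how reads from such copies were assigned is not given in the sources used here. In siControl embryos the list had 6 genes at 8 cells alone and 4 at 4 cells alone.

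Of 48 regulators of germ layers and neural fate, 10 were LAD at both stages, 6 at 8 cells alone and 9 at 4 cells alone, in 6 stretches each. The 6 are 20.7% of the 29 outside 4-cell LADs, against 11.6% of all genes, and the 9 are 47.4% of the 19 inside, against 35.8%. Those at 4 cells alone were the forebrain factors Lhx2 and Nkx2-1, the eye and brain factor Pax6, Pax9, Hand2 of the heart, Myf5 of muscle, and the forkhead genes Foxq1, Foxf2 and Foxc1, which share one 4-cell LAD on chromosome 13. Those at 8 cells alone included Pax3, Pax8, Nkx6-1, Pou4f1 and T, the mesoderm factor Brachyury. In siControl embryos 11 genes of the list were LAD at 8 cells alone and 4 at 4 cells alone.

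Long neuronal and adhesion genes depended on which part of the gene was read. By midpoint, 21 of 51 were LAD at both stages, 9 at 8 cells alone and 4 at 4 cells alone. The 9 are 34.6% of the 26 outside 4-cell LADs, against 11.6% of all genes. The 4 are 16.0% of the 25 inside, against 35.8%. Dcc and Cntnap5b, of a guidance receptor and a neurexin relative, had 0% of their body in 4-cell LADs and 100% in 8-cell LADs. For Cdh8 the share of the body went from 44.6% to 100%, and for Cntn6 from 1.98% to 100%. Cntnap2, the longest gene body among those at 8 cells alone at 2.24 Mb, had 49.1% in 4-cell and 84.8% in 8-cell LADs. Lrp1b (2.06 Mb) went from 0% to 72.9% and Csmd1 (1.64 Mb) from 12.6% to 43.1%. Dpp10 (1.51 Mb) went from 0% to 62.5% and Ctnna2 (1.10 Mb) from 34.6% to 72.8%. By midpoint, siControl embryos had 14 genes of the list at 8 cells alone, 38.9% of the 36 outside their 4-cell LADs, and 1 at 4 cells alone.

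At 4 cells alone were the synaptic adhesion gene Nlgn1 (63.5% of the body at 4 cells, 12.2% at 8 cells), Pcdh10, Kcnip4 and Unc5d, the last 3 with their whole body in 4-cell LADs and none in 8-cell LADs. Placing genes by the whole body gave a balance of 8-cell-alone minus 4-cell-alone genes of -2 and placing them by the start one of -1, where the midpoint gave 5. The other long gene bodies at 4 cells alone were Pcdh15 (1.55 Mb, 100% to 48.5%), Rbfox1 (1.53 Mb, 100% to 32.7%), Naaladl2 (1.35 Mb, 100% to 0%), Lingo2 (1.25 Mb, 56.0% to 8.23%) and Ccser1 (84.8% to 41.8%).

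Of 42 glutamate and GABA receptor genes, the main excitatory and inhibitory receptors of the brain, 7 were LAD at 8 cells alone, 24.1% of the 29 outside 4-cell LADs against 11.6% of all genes, and 1 at 4 cells alone. By any overlap the counts were 5 and 3, and by the transcription start, over fewer genes, 2 and 1. By midpoint, siControl embryos had 13 at 8 cells alone, 37.1% of the 35 outside their 4-cell LADs, and 1 at 4 cells alone. The 7 included the GABA-A subunit genes Gabra2 and Gabrg1, side by side on chromosome 5, and Grm5, Grm7 and Grik2. The 1 was Gabrr3. Potassium and sodium channel genes leaned the other way, with 5 of 102 at 8 cells alone and 17 at 4 cells alone, in 14 stretches. The 5 are 7.14% of the 70 outside 4-cell LADs, against 11.6% of all genes. The 17 are 53.1% of the 32 in 4-cell LADs, against 35.8% of all genes. Among them were Kcna3 to Kcna10 on chromosome 3 (106900001 to 107300000, 3 genes), Kcnip1 and Kcnmb1 on chromosome 11 (33600001 to 34600000), and Scn2a on chromosome 2 (65600001 to 66200000).

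Of all protein-coding genes 67.2% were in no LAD at either stage, and the lists for the lamina (71.4%), silencing (73.1%) and replication (81.6%) are to be read beside that share. Of 21 lamina and envelope genes, 15 were in no LAD, and Tmem38a, the nesprin gene Syne3 and Cbx5, which encodes HP1α, were LAD at 8 cells alone. These 3 are 16.7% of the 18 outside 4-cell LADs, against 11.6% of all genes. Of the 3 inside, 0 were outside at 8 cells. Of 26 heterochromatin genes 19 were in no LAD, 4 were LAD at 8 cells alone and 2 at 4 cells alone, or 2 each with LADs of at least 300 kb. Those at 8 cells alone were Cbx5, the de novo methyltransferase gene Dnmt3b, and the neighbours Morc3 and Chaf1b, which share 1 bin of 100 kb on chromosome 16 (93800001 to 93900000). The Polycomb gene Eed and Hdac2 were LAD at 4 cells alone. The 4 are 17.4% of the 23 heterochromatin genes outside 4-cell LADs, against 11.6% of all genes. The 2 are 66.7% of the 3 inside, against 35.8%. Of 38 genes for replication factors and Rif1 partners 31 were in no LAD. The origin recognition gene Orc4, Ppp1cc, which encodes a catalytic subunit of the phosphatase that RIF1 binds, and the helicase cofactor gene Cdc45 were LAD at 8 cells alone. Orc5 and the helicase subunit genes Mcm4 and Mcm5 were LAD at 4 cells alone.

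Of 34 imprinted genes, expressed from one parental allele, 25 were in no LAD. By midpoint Zdbf2 was LAD at 8 cells alone (3.85% of the 26 outside 4-cell LADs, against 11.6% of all genes), and Usp29, the neighbours Ddc and Grb10, and the neighbours Kcnk9 and Trappc9 were LAD at 4 cells alone (62.5% of the 8 inside, against 35.8%). The counts of 1 and 5 were 3 and 5 by any overlap and 2 and 2 by the transcription start, over fewer genes. The lists do not separate the parental alleles. Among housekeeping groups, 69 of 79 ribosomal protein genes were in no LAD, with 2 at 8 cells alone (2.82% of those outside 4-cell LADs) and 6 at 4 cells alone, of the 8 inside. Proteasome genes had Psmf1 at 8 cells alone and Psma4, Psme4 and Psmg4 at 4 cells alone, with 38 of 46 in no LAD. The genes that differed are 2.56% of the proteasome genes outside 4-cell LADs and 42.9% of the 7 inside. Genes of respiratory complex I had 6 of 41 at 8 cells alone, 17.1% of the 35 outside against 11.6% of all genes (Ndufs1, Ndufa8, Ndufb6, Ndufab1, Ndufa12 and Ndufa2), and Ndufs4 at 4 cells alone. By the transcription start 3 of 30 (10.0%) were LAD at 8 cells alone.

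Chemosensory receptor families contributed many genes at 8 cells alone. Of 1097 olfactory receptor genes, 317 were LAD at both stages, 294 at 8 cells alone in 18 stretches and 77 at 4 cells alone in 11 stretches. The 294 are 41.8% of the 703 outside 4-cell LADs, against 11.6% of all genes. The 77 are 19.5% of the 394 inside, against 35.8% of all genes. The fullest stretches were on chromosome 2: 72 genes at 88700001 to 90500000, 30 at 87400001 to 88000000 and 29 at 85800001 to 86300000. Vomeronasal type 1 receptors, which sense pheromones, had 63 of 227 at 8 cells alone and 13 at 4 cells alone, in 6 stretches each. The shares were 33.5% of the genes outside 4-cell LADs and 33.3% of those inside, against 11.6% and 35.8% of all genes. Of the 63, 28 lay in 1 new LAD on chromosome 13 (22200001 to 23200000). Type 2 receptors had 29 of 120 at 8 cells alone in 8 stretches (32.2% of those outside) and 4 at 4 cells alone in 2 stretches (13.3% of those inside). In siControl embryos the 8-cell-alone counts were higher, 418 olfactory, 111 type 1 and 77 type 2 receptor genes, with 43, 0 and 0 at 4 cells alone.

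Taste and trace amine receptors had the other balance, 6 of 50 at 8 cells alone and 23 at 4 cells alone. Both shares were above those of all genes. The 6 are 24.0% of the 25 outside 4-cell LADs, against 11.6% of all genes. The 23 are 92.0% of the 25 inside, against 35.8%. All 15 trace amine-associated receptor genes placed, from Taar1 to Taar9, lay in 1 stretch of chromosome 10 (23100001 to 24500000) that was LAD at 4 cells alone and held them in LADs at both siControl stages. The other 8 were bitter taste genes on chromosome 6. These were Tas2r118, then Tas2r108, Tas2r137 and Tas2r138 in 1 stretch (40200001 to 40700000), and Tas2r126, Tas2r135, Tas2r143 and Tas2r144 in another (42200001 to 43100000). A separate bitter taste cluster on the same chromosome, Tas2r125, Tas2r129, Tas2r131, Tas2r109, Tas2r103 and Tas2r140, formed 1 short LAD at 8 cells alone (132900001 to 133100000). With LADs of at least 300 kb it is left out, and 0 of the list are LAD at 8 cells alone.

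Several tandem families differed as a block. In the epidermal differentiation complex, which encodes skin barrier proteins, all 38 genes were LAD at 4 cells and 37 of them, from Sprr2a1 to Rptn, were outside at 8 cells, in 1 border stretch of 1.2 Mb (chromosome 3, 92200001 to 93400000). The 37 are 97.4% of those in 4-cell LADs, against 35.8% of all genes. In siControl embryos 0 of the 38 were LAD at 4 cells and 23 at 8 cells. Clustered protocadherin genes, which give neurons distinct surface identities, were all outside LADs at 4 cells, and 36 of 57 were in 1 new LAD at 8 cells (chromosome 18, 36600001 to 37700000, Pcdha1 to Pcdhb22). The 36 are 63.2% of the 57, against 11.6% of all genes outside 4-cell LADs. None of the 57 was in a siControl LAD at either stage. The HoxC cluster, 9 of the 39 Hox genes that pattern the body axis, was LAD at 8 cells alone (chromosome 15, 102500001 to 103400000). These 9 are 23.1% of the Hox genes, all of them outside 4-cell LADs, against 11.6% of all genes. The other 30 Hox genes were in no siRif1 LAD. In siControl embryos no HoxC gene was in a LAD, and 9 other Hox genes were LAD at both stages.

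Lectin and killer receptor genes, many of them expressed by natural killer cells, had 16 of 60 at 8 cells alone and 1, Clec5a, at 4 cells alone. These 16 are 50.0% of the 32 outside 4-cell LADs, and 15 of them lay in 2 stretches of the natural killer complex on chromosome 6, Klrk1 to Klra5 (9 genes, 129600001 to 130000000) and Klrb1a to Clec2i (6 genes, 128600001 to 128900000). The other was Klrg1. In siControl embryos the whole list had 3 genes at 8 cells alone. Of 42 beta defensin genes, all outside 4-cell LADs, 10 formed 1 new LAD at 8 cells (chromosome 8, 19000001 to 19400000, Defb38 to Defb3). This is 23.8%, against 11.6% of all genes. In siControl embryos the same 10 genes were LAD at 8 cells alone too. All 28 alpha defensin genes were outside siRif1 LADs at both stages. Of 20 interferon genes 17 were LAD at both stages and 0 at one stage alone. Cytochrome P450 genes, of drug and steroid metabolism, had 19 of 98 at 8 cells alone and 11 at 4 cells alone. These are 30.2% of the 63 outside 4-cell LADs and 31.4% of the 35 inside, against 11.6% and 35.8% of all genes. Conjugating enzymes, which make such compounds soluble, had 6 of 42 at 8 cells alone, all Ugt2b genes of 1 stretch on chromosome 5 (86000001 to 87300000, Ugt2b34 to Ugt2b37), and 4 at 4 cells alone, Sult2a7, Sult2a8, Sult1c1 and Sult1c2. The shares of the conjugating enzymes were 31.6% of the 19 outside 4-cell LADs and 17.4% of the 23 inside. Serpins had 4 of 62 each way, 9.3% of the 43 outside 4-cell LADs and 21.1% of the 19 inside. Among structural genes of hair and skin, 1 of 49 keratin genes outside 4-cell LADs, Krt80, was LAD at 8 cells (2.04%, against 11.6% of all genes). So were 2 of 33 keratin-associated genes (6.06%), Krtap7-1 and Krtap11-1, and Krtap28-13 was LAD at 4 cells alone.

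Placental families split by locus. Of 46 prolactin-like, pregnancy-specific glycoprotein (Psg) and cathepsin genes, 11 were LAD at 8 cells alone and 9 at 4 cells alone. These are 29.7% of the 37 outside 4-cell LADs and all 9 inside, against 11.6% and 35.8% of all genes. The 8 placental cathepsin genes from Ctsj to Cts3 were LAD at 8 cells alone in 1 stretch (chromosome 13, 60800001 to 61600000). The 8 Psg genes from Psg18 to Psg20 were LAD at 4 cells alone in 1 stretch (chromosome 7, 18100001 to 18700000), and their neighbours Psg16 and Psg29 were LAD at 8 cells alone (17100001 to 17600000). In siControl embryos all 18 of these genes were LAD at 8 cells alone. Of 45 Pramel genes 7 were LAD at 8 cells alone (Pramel6, Pramel7, Pramel14, Pramel16, Pramel48, Pramel49 and Pramel50) and Pramel13 and Pramel46 at 4 cells alone. The Pramel shares were 25.9% of the 27 outside 4-cell LADs and 11.1% of the 18 inside. In the oocyte and embryo homeobox family Obox2 was LAD at 8 cells alone and Obox7 at 4 cells alone. Of 40 collagen genes, Col3a1, Col5a2 and Col11a1 were LAD at 8 cells alone and Col22a1 and Col8a1 at 4 cells alone. These are 11.1% of the 27 outside 4-cell LADs and 15.4% of the 13 inside. Zinc finger genes had 26 of 375 at 8 cells alone and 19 at 4 cells alone. These are 8.0% of the 325 outside 4-cell LADs and 38.0% of the 50 inside, against 11.6% and 35.8% of all genes. Of 67 histone genes 65 were in no LAD, the exceptions being H2bc1 and H2ac1 at 4 cells alone.

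**Figure D3:**
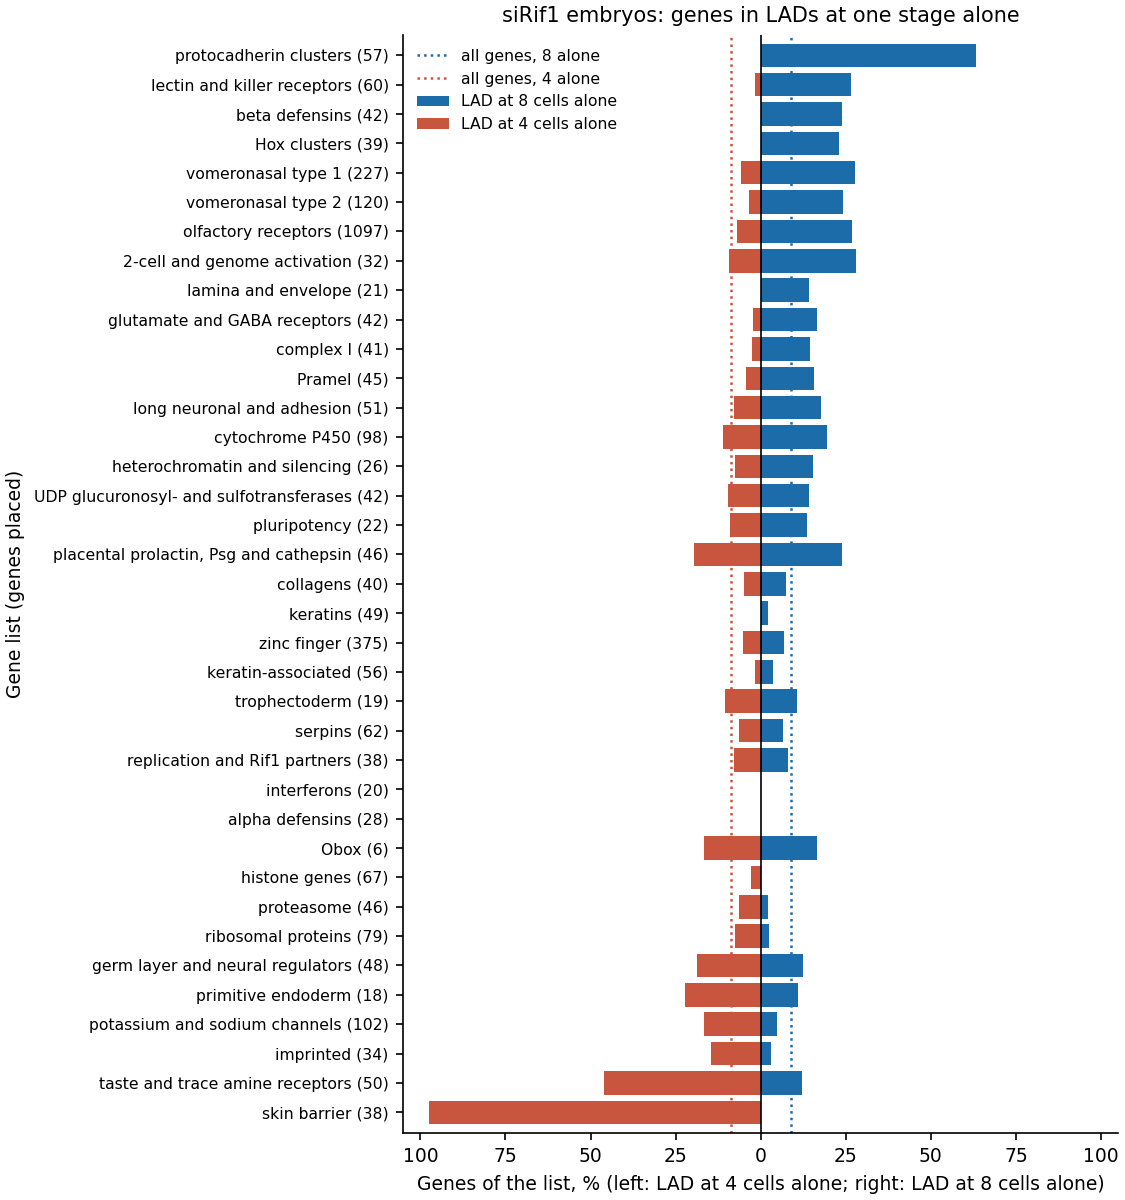
Percent of the placed genes of each list that were LAD at 8 cells alone (blue, right) or at 4 cells alone (red, left) in siRif1 embryos, with the number placed in brackets and dotted lines at the shares of all protein-coding genes, 8.83% and 8.58%. Protocadherins stand furthest right with 63.2%, and 37 of 38 skin barrier genes stand on the left.

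Hairpins of microRNAs, short RNAs that repress transcripts with a match to their seed, were placed in the same way. Of 712 hairpins outside 4-cell LADs 48 were LAD at 8 cells, which is 6.74%, and of 179 inside 59 were outside at 8 cells, which is 33.0%. At 4 cells alone were the hairpins of 2 loci that join let-7 to miR-99a or miR-100. These were Mir99a with Mirlet7c-1 on chromosome 16 (76900001 to 78100000), and Mir100, Mirlet7a-2 and Mir125b-1 on chromosome 9 (41200001 to 41600000). Mir30a and Mir30c-2 on chromosome 1 (22900001 to 24100000) were also LAD at 4 cells alone. For these hairpins other than Mirlet7a-2, the mature 5p sequences are shown from RefSeq with the seed, bases 2 to 8, in capitals. Of the sequences shown, miR-99a-5p and miR-100-5p share a seed, and miR-30a-5p and miR-30c-5p share another. The 3p sequences of these hairpins are not shown.
miR-99a-5p: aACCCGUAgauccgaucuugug
miR-100-5p: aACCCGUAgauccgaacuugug
let-7c-5p: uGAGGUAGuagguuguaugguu
miR-125b-5p: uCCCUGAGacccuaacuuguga
miR-30a-5p: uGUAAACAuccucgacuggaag
miR-30c-5p: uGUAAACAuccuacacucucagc

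At 8 cells alone were Mir200a, Mir200b and Mir429, a polycistron of epithelial microRNAs at the end of chromosome 4 (155900001 to 156200000), in a stretch with no siControl LAD at either stage. The Mir23b, Mir27b and Mir24-1 hairpins on chromosome 13 (63000001 to 64000000), Mir196a-2 within the HoxC stretch, and the neural Mir9-2 beside Mef2c were LAD at 8 cells alone as well. Here miR-200b-3p and miR-429-3p share a seed, and miR-200a-3p has its own.
miR-200a-3p: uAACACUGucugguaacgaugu
miR-200b-3p: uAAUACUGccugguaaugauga
miR-429-3p: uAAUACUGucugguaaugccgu
miR-27b-3p: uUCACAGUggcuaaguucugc
miR-24-3p: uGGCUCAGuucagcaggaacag
miR-196a-5p: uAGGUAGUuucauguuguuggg
miR-9-5p: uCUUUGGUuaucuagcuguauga

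Paralogous loci shared a state in some families and not in others. Of 10 let-7 hairpins 3 were LAD at 4 cells alone, 1 at both stages and 6 at neither. Mirlet7e and its neighbour Mir125a on chromosome 17 were both LAD at both stages. The second miR-200 locus, Mir141 and Mir200c on chromosome 6, was in no LAD. Mir23a, Mir27a and Mir24-2 on chromosome 8 and Mir30c-1 and Mir30e on chromosome 4 were in no LAD either.

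The 2 kinds of differing chromatin had different gene content. Stretches at 8 cells alone held 5.74 protein-coding genes per Mb and those at 4 cells alone 5.32, between the 4.35 of bases LAD at both stages and the 13.1 of bases LAD at neither. Genes at 8 cells alone were short, with a median length of 13.7 kb against 29.0 kb at 4 cells alone and 17.8 kb for all genes. Genes of at least 500 kb numbered 29 at 8 cells alone and 43 at 4 cells alone. Promoters at 8 cells alone had a median GC content of 49.3% against 55.0% at 4 cells alone, and 35.7% against 47.2% of them had a CpG ratio of at least 0.6. The olfactory and vomeronasal genes carried much of this contrast between promoters. Without them median GC was 54.7% and 56.0%, and the shares with a CpG ratio of at least 0.6 were 46.7% and 50.0%. Gene lengths were not compared without the olfactory and vomeronasal genes.

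Mouse chromosomes have their centromere at the start of the sequence. In the first 10 Mb of the span, LAD coverage of siRif1 embryos was 56.4% at 4 cells and 43.2% at 8 cells, with 43.2 Mb at 4 cells alone and 18.2 Mb at 8 cells alone. Coverage there was lower at 8 cells on 16 of 19 chromosomes, equal on 1 and higher on chromosomes 5 and 19, with a median of -11.0 points and a range of -37.0 to 14.0. In the middle of the chromosomes coverage was 42.5% and 42.4%. In the last 10 Mb it was 41.4% and 47.7%, higher on 9 chromosomes, lower on 7 and equal on 3, with a median of 0.0 points. In siControl embryos coverage was higher at 8 cells in all 3 regions: 40.9% and 50.5% in the first 10 Mb, 31.9% and 44.0% in the middle, and 36.5% and 47.1% in the last 10 Mb. In the first 10 Mb it was higher on 13 chromosomes and lower on 6. How reads from repeats near centromeres were treated is not given in the sources used here.

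**Figure D4:**
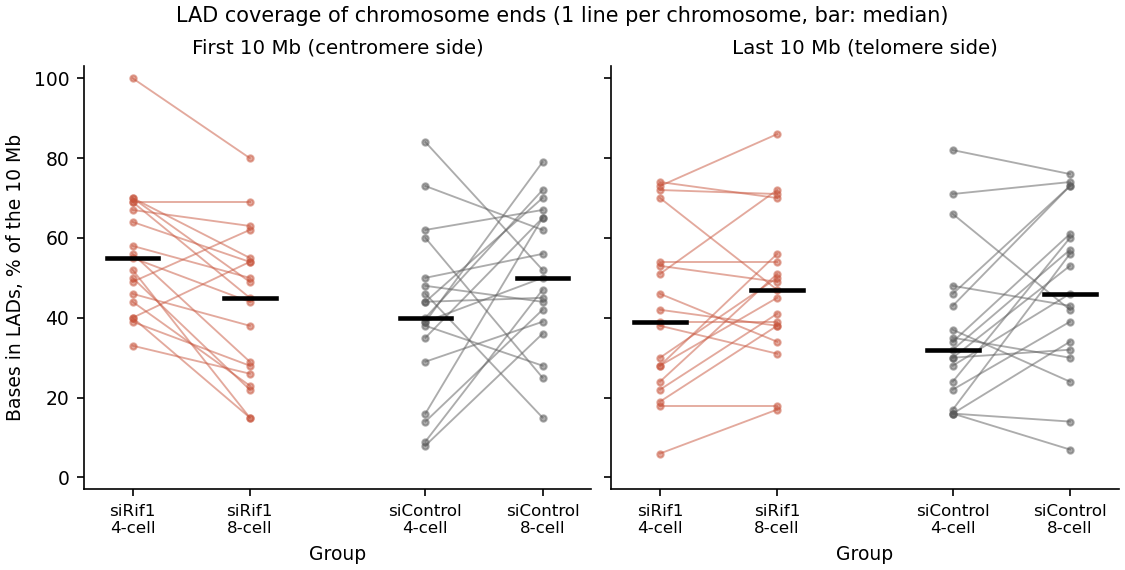
LAD coverage (percent of bases) of the first and last 10 Mb of each chromosome's span at 4 and 8 cells, in siRif1 (red) and siControl (grey) embryos; each line is 1 chromosome and the black bars are medians over 19 chromosomes. In the first 10 Mb the siRif1 median goes from 55.0% to 45.0% and the siControl median from 40.0% to 50.0%.

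The same bases were looked up in siControl embryos, whose LADs cover 32.9% of the whole span at 4 cells and 44.7% at 8 cells. Of the span, 46.8% was LAD at neither siControl stage, 24.4% at both, 20.3% at 8 cells alone and 8.52% at 4 cells alone. Bases LAD at 8 cells alone in siRif1 embryos were mostly not LAD in siControl 4-cell embryos (16.1% were) and were LAD over 46.8% of their length in siControl 8-cell embryos. By pair of stages, 46.9% were LAD at neither siControl stage, 37.0% at 8 cells alone, 9.84% at both and 6.26% at 4 cells alone. Bases LAD at 4 cells alone in siRif1 embryos were LAD over 54.3% of their length in siControl 4-cell and over 57.4% in siControl 8-cell embryos. Of these, 35.7% were LAD at both siControl stages, 21.6% at 8 cells alone, 18.6% at 4 cells alone and 24.0% at neither. Bases LAD at both siRif1 stages were LAD at both siControl stages over 57.4%, and bases LAD at neither were LAD at neither over 79.9%.

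**Figure D5:**
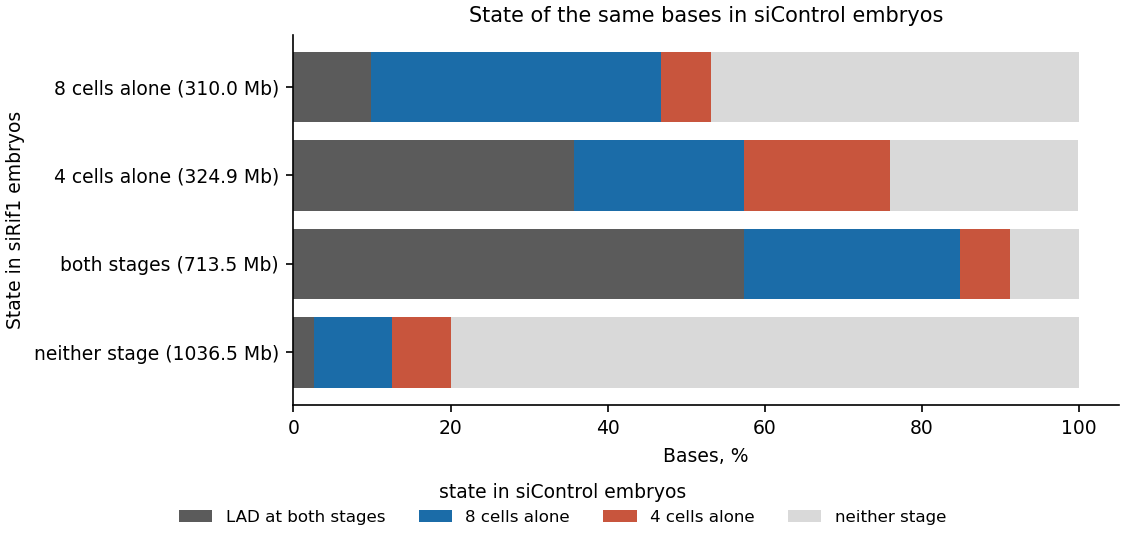
State in siControl embryos of the bases in each siRif1 state, in percent of the bases of that state (their Mb in brackets); colours give the siControl state. Of the 8-cell-alone bases 37.0% are LAD at 8 cells alone in siControl embryos too, and of the 4-cell-alone bases 18.6% are LAD at 4 cells alone in both.

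Bases that differed between stages were compared between the treatments beside the shares of the whole span, 13.0% and 13.6% for siRif1 and 20.3% and 8.52% for siControl embryos at 8 and at 4 cells alone. The 114.7 Mb that were LAD at 8 cells alone in both are 37.0% of the siRif1 and 23.7% of the siControl 8-cell-alone bases. The 60.4 Mb that were LAD at 4 cells alone in both are 18.6% of the siRif1 and 29.7% of the siControl 4-cell-alone bases. Opposite states held for 70.3 Mb, LAD at 4 cells alone in siRif1 and at 8 cells alone in siControl embryos, and for 19.4 Mb the other way round. These are 21.6% of the siRif1 4-cell-alone and 6.26% of the siRif1 8-cell-alone bases, near the 20.3% and 8.52% of the span. By Jaccard index the siRif1 4-cell list overlapped the siControl 8-cell list by 60.3% and the siControl 4-cell list by 52.8%. The siRif1 8-cell list overlapped the siControl 8-cell list by 56.0% and the siControl 4-cell list by 38.6%. These pairs share lists, so they are not independent of each other. The index also depends on list size. The siControl 4-cell list was the smallest, with 785.7 Mb against 1023.5 to 1066.7 Mb in the other lists. The order of these values therefore does not by itself rank how alike the lists are.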

How the data were processed

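LaminB1 DamID of 4 groups of mouse embryos, with 3 replicates each, was analysed as 1 LAD list per group, since the deposited lists pool the replicates, per the series' design text. Per the submitters' processing notes, the tools included Trimmomatic, Bowtie2, SAMtools and Picard, with mm10 as genome build. How LADs were called, at which threshold and with which Dam control, is not given in the sources used here. In each deposited list the LAD borders fall on multiples of 100 kb and the scores are all 0. The depth of the replicates is unknown, so counting error has no interval.

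Lists were compared bin by bin over 2384.9 Mb, the part of each of 19 chromosomes that lies between its outermost LADs in the 4 lists, in Python 3.11.15 with numpy 2.4.6 and pandas 2.3.3. Coordinates are 1-based on GRCm38. The 20144 protein-coding genes of RefSeq (GRCm38.p6) with a midpoint in the span were placed by it, after removing 333 of 47042 entries with scaffold coordinates. Transcription starts are known for 16123 of them (80.0%). No p-values are given. The code was tested on simulated lists.

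The comparison, 37 gene lists and alternatives were chosen with earlier results of these data known. MicroRNA hairpins and the windows of other size at chromosome starts were added after the data were seen. Named genes are the 8 longest stretches per direction with up to 3 genes each, every differing member of lists of at most 60 genes (tandem families by first and last gene), the fullest stretches of larger lists, Rif1, Lmnb1, the 5 longest LADs without a counterpart per direction, the longest LADs and the 5 longest genes per direction. Cdx2 and the other 3 promoters, and the microRNAs, were chosen after their states were seen. Some genes and stretches that this rule names are left out of the text.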

Additional observations from a re-analysis of the deposited data

Results flagged for a closer look

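Differences between the stages had opposite signs in siRif1 and siControl embryos for the values below. With 1 pooled list per group, none of these differences between treatments was tested.

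LAD bases at 8 cells minus 4 cells were -14.9 Mb in siRif1 and 281.0 Mb in siControl embryos, but the siRif1 value was 2.6 Mb without chromosome 9 and 3.7 Mb without chromosome 10. LAD coverage of the first 10 Mb of the chromosome spans differed by -13.2 points in siRif1 and by 9.6 points in siControl embryos. Coverage of the middle differed by -0.1 points and by 12.1 points, the first close to 0.

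For gene lists the value is the number of genes LAD at 8 cells alone minus the number LAD at 4 cells alone. It was -37 in siRif1 and 23 in siControl embryos for the skin barrier genes, which form 1 locus and so 1 observation. It was -3 and 7 for germ layer and neural regulators, 5 and -6 for complex I, and 7 and -3 for zinc finger genes. It was 3 and -2 for lamina and envelope genes, 2 and -3 for heterochromatin genes, 1 and -5 for collagens, and 1 and -1 for pluripotency genes. The siRif1 sign did not hold for heterochromatin genes with LADs of at least 300 kb (0) or for pluripotency genes by the transcription start (-1). It did not hold for collagens by any overlap either, with 3 genes each way (0).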

How the results depend on the processing

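No paired analysis was possible because the pooled lists carry no replicates, and leaving out a replicate could not be done for the same reason. The amounts at one stage alone kept their size when a chromosome was left out, at 273.7 to 305.1 Mb for 8 cells alone and 291.7 to 319.2 Mb for 4 cells alone. Their difference did not. The net of -14.9 Mb was -25.9 Mb with LADs of at least 300 kb and -0.4 Mb with bases within 100 kb of a border left out. Leaving out 1 chromosome gave a range of -31.4 (without chromosome 1) to 3.7 Mb (without chromosome 10), 2.6 Mb without chromosome 9, and moved values without chromosomes 2 (-29.2), 3 (-2.1), 5 (-24.7), 7 (-6.1), 8 (-6.8), 11 (-3.9), 12 (-23.5), 13 (-22.6), 16 (-7.7), 17 (-25.3) and 19 (-8.7). The 596 and 647 stretches numbered 389 and 422 when those under 300 kb were left out, by construction. The net of the first 10 Mb, -25.0 Mb, was -11.2 Mb in the first 5 Mb and -38.4 Mb in the first 20 Mb, both windows added after seeing the data, and -26.4 to -21.3 Mb with 1 chromosome left out. Of 185 values of a list's balance under other settings 161 kept their side and size, 21 moved and 3 reversed: pluripotency (1) was -1 by the transcription start, which is not known for Dppa2 and Dppa4, and long neuronal genes (5) were -2 by the whole body and -1 by the start. The start is likewise unknown for many clustered genes, so protocadherins gave 0 and Hox genes 1 at 8 cells alone by that rule.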
